A study of Mus musculus with 23 samples.

Results

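The neurotrophins and their receptors were followed through 6 genes chosen by name, Bdnf, Ntf3, Ntrk2, Ntrk3, Ngfr and Sort1, out of 55487 gene IDs counted in every library. The cells were primary hippocampal cultures from C57Bl/6 mouse pups of postnatal day 1, seeded on one side of a microfluidic chamber so that axons grow through channels into a separate compartment. All cultures, controls included, received magnetic nanoparticles (MNPs) at 5 µg/ml. Stretched cultures were exposed to a magnetic gradient of 50 T/m between days in vitro (DIV) 1 and 6, and control cultures to a null gradient. RNA was sequenced from the axonal compartment (5 control and 6 stretched libraries) and from the side with the cell bodies, called soma here (6 control and 6 stretched libraries). The labels number the libraries of a group but do not say whether numbers mark separate cultures or animals, or how many pups were pooled. The p-values therefore measure the spread between these libraries, which may be technical.

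Neurotrophins are secreted growth factors, made as longer proforms that proteases cut. Bdnf encodes brain-derived neurotrophic factor and Ntf3 neurotrophin-3. The mature forms act through the Trk receptor tyrosine kinases, TrkB (from Ntrk2) for BDNF and TrkC (from Ntrk3) for neurotrophin-3, while the p75 receptor (from Ngfr) binds all neurotrophins and, with the sorting receptor sortilin (from Sort1), their proforms. In the hippocampus BDNF and TrkB are known for their roles in dendrite growth and synaptic plasticity. Neurons make both full-length and truncated TrkB, and astrocytes are known to make mainly a truncated TrkB that lacks the kinase.

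Values are counts per 1000000 counts of the library (CPM). Libraries held 16369153 to 43048953 counts, so the floor of 3 counts used here for detection was 0.0697 to 0.183 CPM, which covers counting error only. At least 1 count was found for 4263 to 10242 genes in axonal and 22452 to 24575 genes in soma libraries. Axonal libraries are labelled as purely axonal, but in addition to a summed level of 6 neuronal markers of 1159 to 4138 CPM they held 3978 to 21496 CPM of 8 astrocyte markers in control and 4052 to 19757 CPM in stretched cultures. Of these astrocyte markers, 3 were above the floor in all control axonal libraries and 1 in all stretched ones, where 7 were at 0 in some library. Gfap alone made up most of the sum, with 3143 to 20253 CPM in control and 2867 to 18137 CPM in stretched axonal libraries. Fibroblast or mural markers summed to 106 to 756 CPM in control and 0 to 1479 CPM in stretched axonal libraries (7 markers), those of the oligodendrocyte lineage to at most 438 CPM (8 markers) and microglial ones to at most 155 CPM (6 markers). The part of these cell types in the axonal values of the members was not tested. The 4 endothelial markers were at 0 in all stretched axonal libraries, Sox10 of the oligodendrocyte lineage had no count in any library, and the microglial markers Cx3cr1, Csf1r, P2ry12, Aif1 and C1qa were at 0 in all control axonal libraries.

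All 6 genes were found in the counts and matched to GENCODE M21 on the mouse build GRCm38. Bdnf (ENSMUSG00000048482) lies at chr2:109674700-109727007 on the plus strand, with 11 annotated transcripts that all code for protein. Ntf3 (ENSMUSG00000049107) lies at chr6:126101412-126166910 on the minus strand, with 3 transcripts. Ntrk2 (ENSMUSG00000055254) spans chr13:58806569-59133970 on the plus strand with 10 transcripts, 7 of them coding, and Ntrk3 (ENSMUSG00000059146) spans chr7:78175959-78738012 on the minus strand with 20 transcripts, 6 of them coding. Ngfr (ENSMUSG00000000120) lies at chr11:95568818-95587735 on the minus strand with 1 transcript, and Sort1 (ENSMUSG00000068747) at chr3:108284082-108361511 on the plus strand with 3. Ntf3 and Ngfr overlap no other annotated gene. The strand setting of the counting is not given in the sources used here, so reads of Bdnf, Ntrk2, Ntrk3 and Sort1 cannot be told from those of their antisense neighbours. Among these, Gm9885 within Ntrk3 had 124 to 329 counts in soma libraries and up to 2076 in an axonal one, and 4930415C11Rik within Ntrk2 had at most 9 counts in soma libraries and up to 1271 in an axonal one.

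A count per gene pools receptor forms that differ in function, which the coding sequences show. The full-length Ntrk2 reading frame has 2466 bases (821 codons before the stop), and a short form, annotated as 2 transcripts, has 1431 bases (476 codons). Both share their first 1394 coding bases, after which the short form has 37 bases of its own that end in a stop codon and lacks the rest, where the kinase is encoded. The annotation also holds short Ntrk2 frames of 1479, 1470 and 1401 bases. They leave the full-length sequence after 1393 to 1396 coding bases and have tails of their own. The stretch around the point where the 1431-base form parts is shown because a gene count adds up RNAs of full-length and short forms. Capitals mark what follows the last shared base.
Ntrk2, short form: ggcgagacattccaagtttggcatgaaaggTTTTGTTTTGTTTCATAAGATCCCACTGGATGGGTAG
Ntrk2, full-length form: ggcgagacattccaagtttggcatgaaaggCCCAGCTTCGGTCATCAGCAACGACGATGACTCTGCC
Ntrk3 likewise has a longest frame of 2595 bases and a short one of 1839 bases. The short one leaves the shared sequence after 1585 bases and ends in 254 bases of its own. Ntrk3 frames of 2520 and 2478 bases are annotated as well. They part from the longest frame after 2133 and 2134 coding bases, and their remaining 387 and 344 bases are found within it. They are thus not short forms with tails of their own. The counts used here give no share of short and full-length forms for either receptor.

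Members of a gene family can also share sequence, which limits how reads are assigned. The longest run of identical coding bases between Ntrk2 and Ntrk3 had 23 bases, and that between Bdnf and Ntf3 had 17 bases. Both are shown with 30 flanking coding bases on each side, and capitals mark the shared run.
Ntrk2: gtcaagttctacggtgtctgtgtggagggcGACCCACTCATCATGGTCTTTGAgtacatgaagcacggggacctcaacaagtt
Ntrk3: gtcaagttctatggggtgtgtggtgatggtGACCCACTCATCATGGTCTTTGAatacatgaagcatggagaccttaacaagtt
Bdnf: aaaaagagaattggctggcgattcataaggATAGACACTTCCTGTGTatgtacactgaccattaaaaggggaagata
Ntf3: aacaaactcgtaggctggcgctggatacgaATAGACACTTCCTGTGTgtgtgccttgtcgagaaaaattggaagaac
The shared runs are shorter than the 150-base reads named in the labels, and the flanking bases differ between the genes of each pair.

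All 6 genes were above the floor in all 12 soma libraries. Levels of different genes were compared as CPM per kilobase (kb) of each gene's longest annotated transcript. On this scale Ntrk2 was at 51.1 ± 11.8 and Bdnf at 41.8 ± 14.1 CPM per kb (mean ± SD, n = 12 soma libraries), neighbours that differed by less than their spread. This spread includes a difference between sets of soma libraries described below, which ran in opposite directions for Ntrk2 (540.1 and 354 CPM) and Bdnf (130.2 and 226.1 CPM). The pooled order of these genes therefore need not hold within a set. Ntf3 followed at 7.39 ± 1.70, Ntrk3 at 7.02 ± 0.859, Sort1 at 4.38 ± 0.780 and Ngfr at 3.83 ± 1.13 CPM per kb (SD, n = 12 each). Ntf3 and Ntrk3 also differed by less than their spread, as did Sort1 and Ngfr. The place of Ntrk3 depends on the transcript taken, since its longest transcript has 19.7 kb and its median one 0.991 kb. Divided by the median length, Ntrk3 stood at 139.7 CPM per kb, after Ntrk2 at 155 and before Bdnf at 45.6 CPM per kb.

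The comparison of stretched with control soma libraries asks whether the force changed neurotrophin RNA on the side of the cell bodies. Sort1 rose, and the other 5 genes were not called. Of all 15632 genes tested with edgeR's quasi-likelihood test, 11.2% were called higher and 13.9% lower in stretched soma at an adjusted p under 0.05, so 1 member higher and 0 lower of 6 tested is not more than this background. The median log2 fold change was 0.05 over the 6 members and -0.03 over all genes tested. The CPM ranges of both groups overlap for every member, as the plot of CPM by soma library shows. The share of all genes whose ranges do not overlap is not given here, so this is a description only.

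Sort1 had 19.3, 27.3 and 31.95 CPM (lowest, median and highest) in the 6 control soma libraries and 30.6, 34.2 and 36.3 CPM in the 6 stretched ones. Only the control library with the highest value, replicate 4, reached into the stretched range. The mean was 25.9 ± 4.47 CPM in control and 33.9 ± 2.16 CPM in stretched soma (SD, n = 6 each). The log2 fold change was 0.35 (SE 0.12, adjusted p = 0.0392 by edgeR's quasi-likelihood test). This call is close to the threshold. It was kept without control soma replicate 4 (adjusted p = 0.00909) or stretched soma replicate 4 (adjusted p = 0.0479), and it was lost when any of the other 10 libraries was left out (adjusted p 0.0508 to 0.0833), without a filter on low counts (adjusted p = 0.0519) and with offsets for transcript length and GC content (log2 fold change 0.15, adjusted p = 0.331).

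Bdnf, the more abundant of both ligands, had 115.8, 194.1 and 289.8 CPM (lowest, median and highest) in control and 103.5, 145.7 and 226.6 CPM in stretched soma. The ranges overlap over most of their length. The means were 199.4 ± 64.8 and 156.9 ± 51.1 CPM (SD, n = 6 each), with a log2 fold change of -0.39 (SE 0.25, adjusted p = 0.271). Ntf3 had 9.97, 11.9 and 15.9 CPM in control and 7.56, 9.45 and 12.2 CPM in stretched soma, with a log2 fold change of -0.36 (SE 0.18, adjusted p = 0.137). Both ligands were thus lower on average in stretched soma, without passing the test.

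Of the Trk receptors, Ntrk2 had 327.6, 419.8 and 620.2 CPM in control and 350.2, 457.3 and 554.1 CPM in stretched soma, and its log2 fold change was -0.01 (SE 0.17, adjusted p = 0.973). Its values fall into a high and a low cluster in both groups. Ntrk3 had 112.3, 133.3 and 141.6 CPM in control and 124.9, 150.3 and 170.4 CPM in stretched soma, with a log2 fold change of 0.17 (SE 0.09, adjusted p = 0.153). Ngfr had 8.99, 12.9 and 16.0 CPM in control and 9.74, 12.5 and 21.5 CPM in stretched soma, with a log2 fold change of 0.11 (SE 0.22, adjusted p = 0.74). For none of these receptors did the groups separate.

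**Figure D1:**
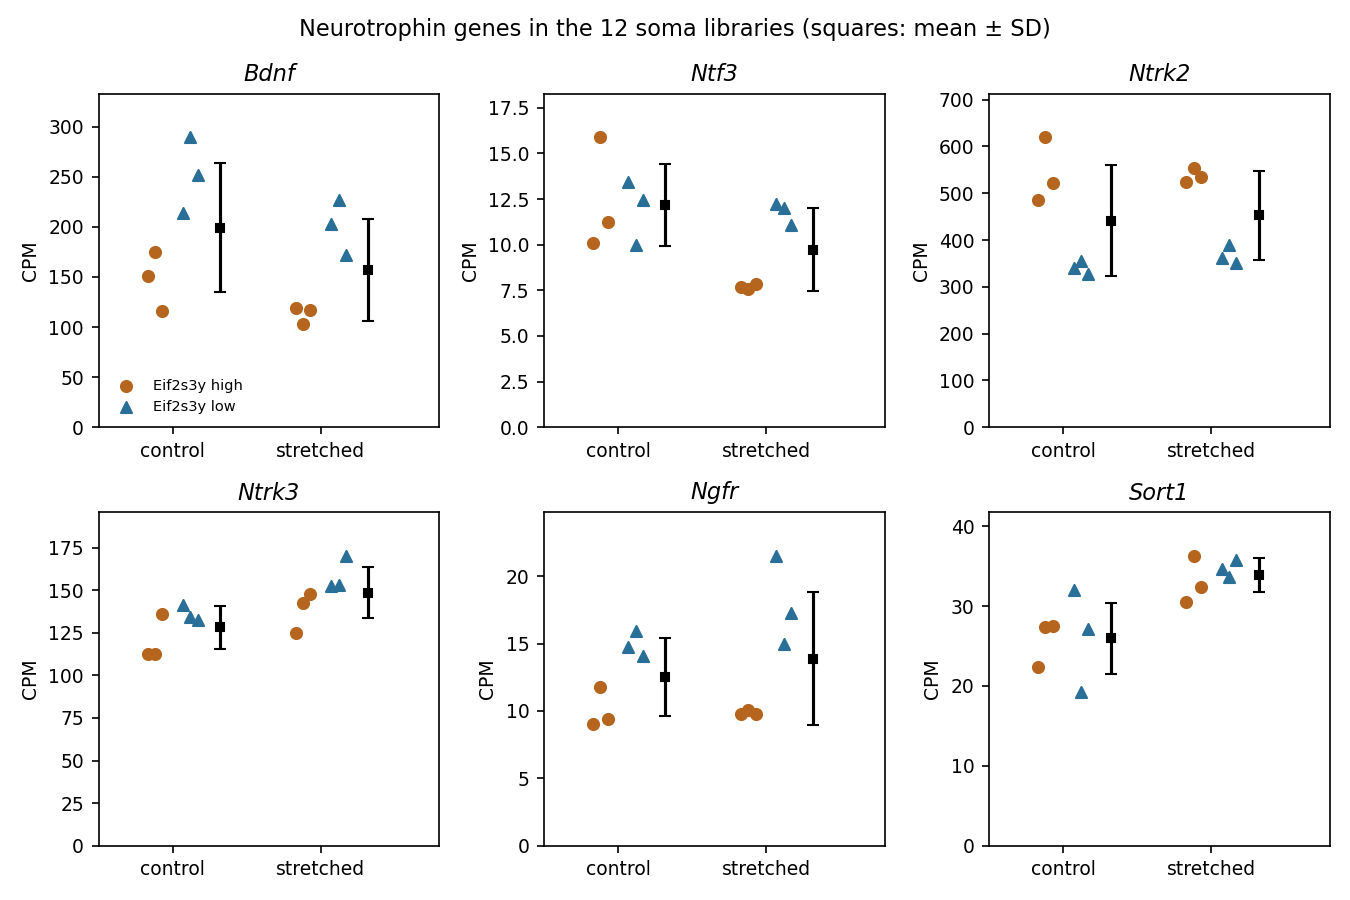
CPM of the 6 genes (one panel each, y axis from 0) in control and stretched soma libraries, with points for libraries, black squares with bars for mean ± SD (n = 6), and symbols for libraries with high (circles) or low (triangles) Eif2s3y. The Sort1 mean is 33.9 CPM in stretched and 25.9 CPM in control soma, and Ntrk2 and Ngfr separate by symbol rather than by condition.

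The soma libraries differed in another way that the labels do not name. Counts of Eif2s3y, a gene on the Y chromosome, split them into 6 libraries with 24.7 to 28.7 CPM (control replicates 1, 2 and 3 and stretched replicates 1, 2 and 8) and 6 with 5.39 to 13.2 CPM (replicates 4, 5 and 6 of both conditions). Each set holds 3 control and 3 stretched libraries. Ntrk2 had 540.1 ± 45.2 CPM in the Eif2s3y-high and 354 ± 21.0 CPM in the Eif2s3y-low libraries (SD, n = 6 each), a ratio of 1.53 with no overlap. Ngfr went the other way, with 9.96 ± 0.974 CPM in the high and 16.4 ± 2.73 CPM in the low set, a ratio of 1.65 of low over high, again with no overlap. Bdnf was at 130.2 ± 26.9 CPM in the high and 226.1 ± 40.8 CPM in the low set, a ratio of 1.74 of low over high, with ranges that overlapped slightly, up to 174.6 CPM in the high and from 172.2 CPM in the low set. Ranges that do not overlap between the sets were found for 5.05% of the 15632 genes and for these 2 of the 6 members.

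Ntf3 (10.04 and 11.9 CPM), Ntrk3 (129.4 and 147.4 CPM) and Sort1 (29.4 and 30.4 CPM in the high and low set) overlapped between the sets. The 8 astrocyte markers summed to 9793 to 12976 CPM in the Eif2s3y-high libraries and to 4771 to 5871 CPM in the Eif2s3y-low ones, with all 8 above the floor in every soma library. Gfap alone had 7556 to 10496 CPM in the high and 3546 to 4436 CPM in the low set. The 6 neuronal markers summed to 5600 to 6545 CPM in the high and 5174 to 5715 CPM in the low set. The part of astrocytes and neurons in the values of Ntrk2, Ngfr and Bdnf was not tested. In these bulk libraries, fewer cells of a type and less RNA per cell cannot be told apart.

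**Figure D2:**
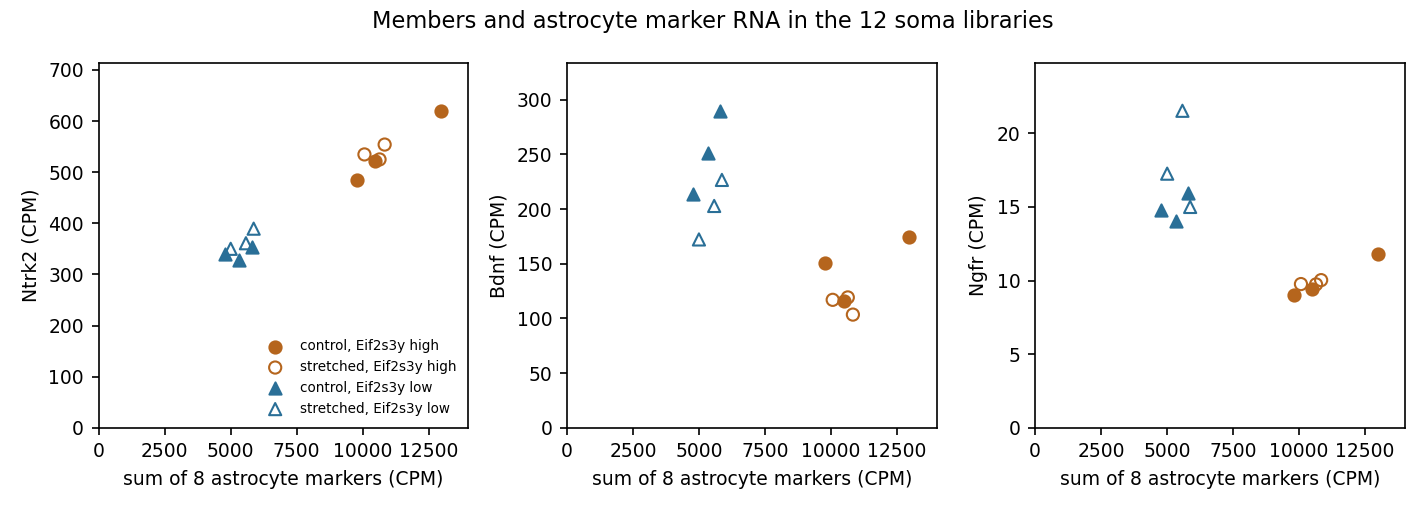
CPM of Ntrk2, Bdnf and Ngfr (y axes) against the summed CPM of 8 astrocyte markers (x axis) in the 12 soma libraries, with filled symbols for control, open symbols for stretched, circles for Eif2s3y-high and triangles for Eif2s3y-low libraries. The Eif2s3y-high libraries sit between 9793 and 12976 CPM of astrocyte markers with the higher Ntrk2 and the lower Ngfr values, and the Eif2s3y-low libraries between 4771 and 5871 CPM.

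With the Eif2s3y set as a covariate over the same 12 libraries, Bdnf passed the test as lower in stretched soma (log2 fold change -0.40, adjusted p = 0.0118 by edgeR's quasi-likelihood test), and Sort1 stayed called higher (0.34, adjusted p = 0.027). Within the Eif2s3y-high libraries Bdnf had a mean of 147.2 ± 29.6 CPM in control and 113.2 ± 8.52 CPM in stretched soma (SD, n = 3 each), and within the Eif2s3y-low ones 251.6 ± 38.1 and 200.5 ± 27.3 CPM (SD, n = 3 each). The log2 fold change was -0.38 (adjusted p = 0.0691) in the high and -0.36 (adjusted p = 0.276) in the low set, so Bdnf was lower by a similar amount in each set without passing the test in either alone. For Sort1 it was 0.36 (adjusted p = 0.0643) and 0.38 (adjusted p = 0.301).

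Ntf3 was the member whose change differed most between the sets. Its 3 stretched Eif2s3y-high libraries had 7.56 to 7.85 CPM and the 3 control ones 10.07 to 15.9 CPM, a log2 fold change of -0.69 (adjusted p = 0.0269 by edgeR's quasi-likelihood test within this set). In the Eif2s3y-low set the means were 11.8 ± 0.626 CPM in stretched and 11.9 ± 1.78 CPM in control soma (SD, n = 3 each), with a log2 fold change of -0.05 (adjusted p = 0.896). The test of this difference in edgeR's quasi-likelihood fit, an interaction term, gave 0.70 (SE 0.27), which did not pass after adjustment over 15632 genes (adjusted p = 0.629). Over all genes that test made 0 calls, while 1169 genes had an unadjusted p under 0.05, and for the other 5 members its adjusted p ranged from 0.753 to 0.945.

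**Figure D3:**
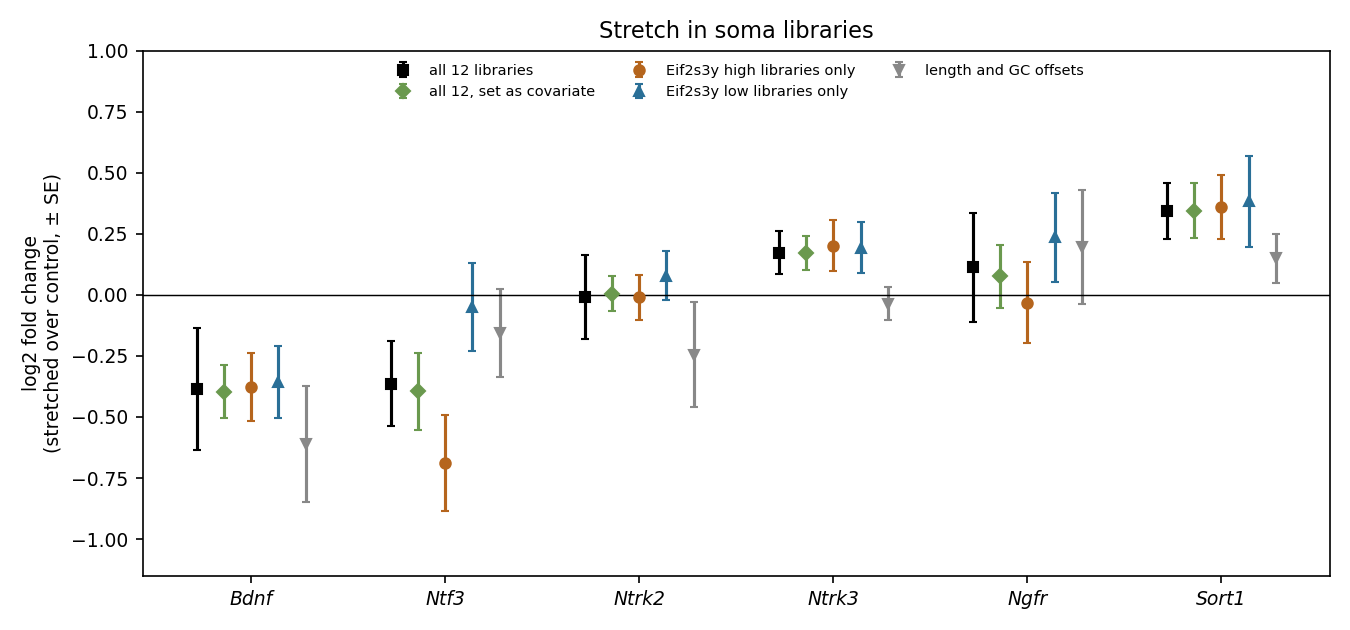
Log2 fold change of stretched over control soma (y axis, points with bars of ± SE) for the 6 genes with all 12 libraries, with the Eif2s3y set as covariate, in each set alone (n = 3 per group) and with offsets for transcript length and GC content. Bdnf is at -0.36 to -0.61 under all 5 settings and Sort1 at 0.15 to 0.38, while Ntf3 is at -0.69 in the Eif2s3y-high and -0.05 in the Eif2s3y-low libraries.

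In axonal libraries the same gene could be at 0 in 1 library and above its level in soma in another of the same group. Bdnf was above the floor in 9 of 11 axonal libraries, Ntrk3 in 7, Ntrk2 in 5, Sort1 in 4, Ngfr in 1 and Ntf3 in 0. The number of members above the floor ranged from 0 to 4 per axonal library. For comparison, the 7162 genes with a mean of 10 to 100 CPM in soma, the range of Ntf3, Ngfr and Sort1, were above the floor in a median of 4 axonal libraries (quartiles 2 and 6). The 2279 genes with 100 to 1000 CPM in soma, the range of Bdnf, Ntrk3 and Ntrk2, were above it in a median of 8 (quartiles 6 and 10). Detection of Ntf3, Ngfr and Ntrk2 was thus below the lower quartile of their range, and that of Bdnf, Ntrk3 and Sort1 within the quartiles. Ntf3 (mean of 10.95 CPM in soma) and Ngfr (13.2 CPM) lie near the lower end of their range, however. The 4387 genes with 1 to 10 CPM in soma were above the floor in a median of 1 axonal library (quartiles 0 and 2). Against those genes, detection of Ntf3 and Ngfr was within the quartiles.

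Among the ligands, Bdnf had 0, 10.1, 0.397, 451.8 and 264.7 CPM in control axon replicates 1, 2, 3, 5 and 7. In stretched axons it ranged from 0 in replicate 2 to 450.3 CPM in replicate 5, with a median of 185.8 CPM. Both groups thus span from no count to levels above any soma library. Ntf3 had no count in any of the 11 axonal libraries. The floor there was 0.0697 to 0.183 CPM and covers counting error only, so it does not bound what a library may have missed.

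Among the receptors, Ntrk2 had 173.5 CPM in control axon replicate 5, 3 counts (0.167 CPM) in replicate 1 and no count in replicates 2, 3 and 7. In stretched axons it was at 0 in replicates 1 and 2 and at 93.1 to 308.6 CPM in the other 4. Ntrk3 had 178.5 CPM in control axon replicate 5, 7.42 CPM in replicate 7, 0.501 CPM in replicate 1 and 0 in replicates 2 and 3. In stretched axons Ntrk3 was also at 0 in replicates 1 and 2, and at 74.1 to 450.2 CPM in the other 4. The same 4 stretched libraries, replicates 4, 5, 6 and 8, thus held both Trk receptors, beside a single control library, replicate 5, with more than 10 CPM of either. These 4 stretched libraries had 6025 to 10065 genes with a count, against 4263 and 4900 in stretched replicates 1 and 2. Control replicate 5 had 10242, against 4867 to 6029 in the other control axons. The part of this in the Trk receptor values was not tested.

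Ngfr had 277 CPM in control axon replicate 3 and no count in the other 4 control axons. In stretched axons its highest value was 2 counts, in replicate 2. Sort1 had 86.4 CPM in control axon replicate 5 and 0 in the other 4, and in stretched axons 494.1, 130.5 and 78.0 CPM in replicates 1, 5 and 8 and 0 in the other 3. Control axon replicate 5, the library with the most counts (43048953) and the most genes with a count (10242), thus held Bdnf, Ntrk2, Ntrk3 and Sort1.

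**Figure D4:**
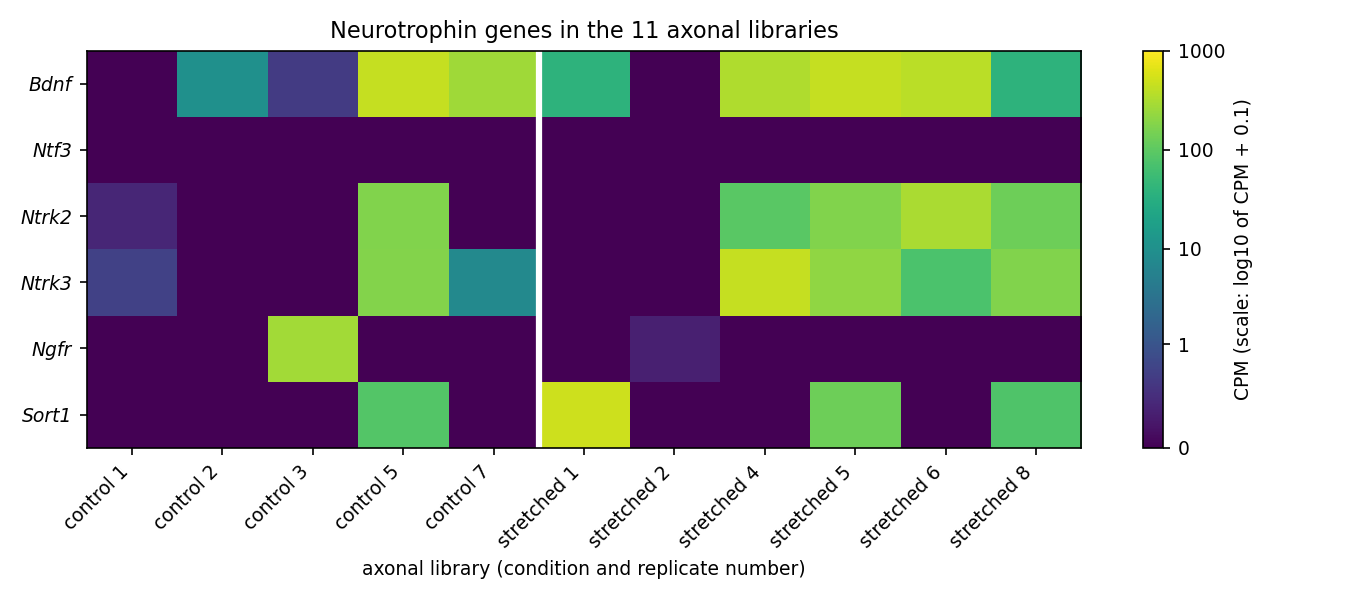
CPM of the 6 genes (rows) in the 5 control and 6 stretched axonal libraries (columns, left and right of the white line), coloured on a log scale of CPM + 0.1. Ntf3 is dark in all 11 columns, Ngfr is bright in control replicate 3 alone, and Ntrk2 and Ntrk3 are bright in control replicate 5 and stretched replicates 4, 5, 6 and 8.

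Between stretched and control axons no member was called. The share of genes called was 0% of 4947 tested by edgeR's quasi-likelihood test, while 46 genes had an unadjusted p under 0.05; DESeq2 called 18 and limma voom 10 genes, none of them a member. The log2 fold change was 0.40 (SE 2.10) for Bdnf, 1.57 (SE 2.91) for Ntrk2 and 1.82 (SE 2.74) for Ntrk3, each with an adjusted p of 1. These errors are larger than the differences, so a change of several-fold in either direction was not detectable here. Ntf3, Ngfr and Sort1 had too few libraries with counts to enter this test.

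The comparison of axonal with soma libraries asks which neurotrophin RNAs were found outside the cell-body side. In control cultures Ntf3 was at least 95.9-fold lower in axons (12.2 ± 2.27 CPM in soma, SD, n = 6, against a mean floor of 0.127 CPM; adjusted p = 1.02e-05 by edgeR's quasi-likelihood test). This fold is set by the floor, which covers counting error only. Ntf3 was the only one of 6 tested members called. Of 14728 genes tested, 34.4% were called lower and 0.856% higher in control axons. For the other members the log2 fold change of axon over soma was -0.58 (SE 1.63) for Bdnf, -3.71 (SE 2.39) for Ntrk2, -1.83 (SE 1.96) for Ntrk3, 1.96 (SE 2.44) for Ngfr and -0.62 (SE 2.26) for Sort1, with adjusted p from 0.354 to 0.931. Though not called, Ntrk2 was lower in every control axon (at most 173.5 CPM) than in any control soma library (at least 327.6 CPM). The share of all genes with such a separation is not given here, so this is a description only.

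Single libraries set several of these values. Without control axon replicate 5, Ntrk2 (log2 fold change -13.61, adjusted p = 4.96e-05), Ntrk3 (-6.29, adjusted p = 0.0277) and Sort1 (-12.36, adjusted p = 1.58e-06) were called lower in axons together with Ntf3. Without control axon replicate 3, Ngfr changed from higher to lower in axons (log2 fold change -11.41, adjusted p = 1.08e-05). Limma voom with quality weights called all 6 members lower in control axons, but it called 66% of all genes tested lower there, with a median log2 fold change of -6.645 over all genes.

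In stretched cultures Ntf3 was at least 69.8-fold lower in axons (9.73 ± 2.27 CPM in soma, SD, n = 6; adjusted p = 8.62e-06) and Ngfr at least 99.7-fold lower (13.9 ± 4.90 CPM in soma, SD, n = 6; adjusted p = 0.000165), both against a mean floor of 0.139 CPM. Both folds are set by the floor, which covers counting error only. Ntf3 and Ngfr were the 2 called of 6 tested members, with 28.4% of 14466 genes called lower and 0.843% higher. Bdnf had a log2 fold change of -0.04 (SE 1.25, adjusted p = 0.995), Ntrk3 of -0.38 (SE 1.58, adjusted p = 0.963), Ntrk2 of -2.32 (SE 1.60, adjusted p = 0.448) and Sort1 of 1.14 (SE 1.94, adjusted p = 0.881). Ntrk2, though not called, was lower in every stretched axon (at most 308.6 CPM) than in any stretched soma library (at least 350.2 CPM). This too is a description only, since the share of all genes with such a separation is not given here. Scaling by total counts moved the median of all genes by 0.40 on the log2 scale in stretched and by 0.13 in control cultures, and it turned the small values of Bdnf (0.40) and Ntrk3 (0.05) to the positive side in stretched cultures. Whether the response to stretch differs between axons and soma was not tested.

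Other ligands and receptors of the family were read from a list of 5 genes, of which 4 entered the soma test, 1 rose and 0 fell, with a median log2 fold change of 0.46, beside 11.2% higher, 13.9% lower and a median of -0.03 over all genes tested. Sorcs2, a sortilin-related receptor that binds proneurotrophins with p75, rose, with 48.8 ± 11.2 CPM in control and 66.7 ± 7.67 CPM in stretched soma (SD, n = 6 each). Its log2 fold change was 0.41 (SE 0.13, adjusted p = 0.0329), a call kept in 5 of 12 fits that left out 1 library and lost with length and GC offsets (0.29, adjusted p = 0.0647).

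The related receptors Sorl1 (log2 fold change 0.50, adjusted p = 0.0934), Sorcs3 (0.70, adjusted p = 0.12) and Sorcs1 (0.10, adjusted p = 0.845) did not pass the test in soma. Sorl1 passed it with the Eif2s3y set as covariate (0.51, adjusted p = 0.036). Ntf5, the gene of neurotrophin-4 and a TrkB ligand, had at most 20 counts in any library and was not tested. None of the 5 genes had enough counts to be tested between stretched and control axons. Against control soma, Sorcs2 (at least 384-fold), Sorl1 (at least 120-fold) and Sorcs3 (at least 22.4-fold) were lower in control axons, where they had no count. These folds are set by the floor, which covers counting error only. In stretched axons Sorcs2 had 124.9, 105.9 and 93.4 CPM in replicates 4, 5 and 8, above any soma library (at most 74.5 CPM). Sorl1 had 79.5 CPM in stretched axon replicate 2. Neither was called against stretched soma (log2 fold change -0.71, SE 1.86, for Sorcs2 and -1.35, SE 2.21, for Sorl1). Against stretched soma, Sorcs1 (at least 38.2-fold) and Sorcs3 (at least 34.2-fold) were lower in stretched axons.

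Genes around the receptors were counted from 4 further lists, with the background of 11.2% called higher and 13.9% lower in stretched soma. Of 9 partners of p75, 2 rose and 1 fell, and the median log2 fold change was -0.03. Kidins220, a scaffold that binds Trk receptors and p75, rose by 0.48 on the log2 scale (SE 0.15, adjusted p = 0.0321), Traf6, a ubiquitin ligase recruited to p75, rose by 0.42 on this scale (adjusted p = 0.0498), and Bex3, a protein that binds the p75 death domain, fell by 0.40 on the log2 scale (SE 0.10, adjusted p = 0.0105). Of 10 tested genes of neurotrophin processing and secretion, 0 rose and 1 fell, with a median of 0.09. That gene was Mmp3, a matrix protease, which fell by 1.16 on the log2 scale (SE 0.36, adjusted p = 0.0333).

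Of 35 Trk adaptors and kinases, 4 rose and 4 fell, with a median log2 fold change of 0.06. Braf (0.70), the adaptor Gab1 (0.60), Nras (0.56) and Pik3ca (0.42) rose, while Rps6ka1 (-1.23), which encodes the ribosomal S6 kinase RSK1, Map2k2 (-0.94), which encodes the kinase MEK2, Pik3cb (-0.90) and Hras (-0.63) fell. Pik3ca, Pik3cb and Hras lay outside the naming rule and are given because the counts are small. Nras had 191.9 ± 32.5 CPM in control and 291.1 ± 21.0 CPM in stretched soma (SD, n = 6 each; adjusted p = 0.00432 by edgeR's quasi-likelihood test). Of 16 transcripts known to follow Trk signalling, 1 rose and 0 fell, with a median of -0.06. The riser was Egr3, an immediate early transcription factor, with 17.1 ± 4.82 CPM in control and 26.6 ± 2.95 CPM in stretched soma (SD, n = 6 each; log2 fold change 0.59, adjusted p = 0.0178).

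Nras, Egr3, Rps6ka1 and Bex3 kept their calls in all 12 fits that left out 1 library, and the other called genes of these lists in 2 (Traf6) to 8 (Map2k2) of them. With length and GC offsets Nras, Egr3, Rps6ka1 and Pik3cb kept theirs, while the others did not. The log2 fold change with offsets was -0.09 for Bex3, 0.17 for Traf6, 0.27 for Kidins220 and 0.13 for Pik3ca, and nearer to the value without them for Mmp3 (-1.01), Gab1 (0.46), Braf (0.47), Hras (-0.50) and Map2k2 (-0.67, adjusted p = 0.0538). In axons 0 genes of the 4 lists were called between stretched and control, out of 4 partners, 3 processing genes, 16 adaptors and kinases and 6 responsive transcripts tested. Against control soma, 3 of 9 partners, 3 of 10 processing genes, 5 of 35 adaptors and kinases and 1 of 15 responsive transcripts were lower in control axons and 0 higher, each beside the 34.4% of all genes called lower. Of these, Sh2b1, a Trk adaptor, had 110.4 ± 17.3 CPM in control soma (SD, n = 6) and no count in control axons (at least 869-fold lower). In stretched cultures 1 of 9 partners, 2 of 10 processing genes, 0 of 35 adaptors and kinases and 3 of 16 responsive transcripts were lower in axons, beside 28.4% of all genes. Egr3 was among them (at least 191-fold lower).

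The genes whose pattern over the 12 soma libraries was most like that of each member were found by the mean absolute difference in log2(TMM-normalized CPM + 1), each gene centred on its own mean, among 9281 genes averaging 10 CPM or more. Smaller values mean more alike, and all values come from the same 12 libraries. The difference between the Eif2s3y sets was not removed and is part of these patterns, as for Ntrk2 (540.1 CPM in the high and 354 CPM in the low set). The part of the sets in the likeness was not tested. For Bdnf these were Mir670hg (0.0782), Rgs16 (0.108) and Ppp1r15a (0.123), where the mean absolute deviation of Bdnf from its own mean was 0.42. For Ntrk2 they were Lamp2 (0.0492), Mmd2 (0.0642) and Sparcl1 (0.0693), against an own deviation of 0.297. Ntrk3 was nearest to Dnajc13 (0.0527), Fmr1 (0.0645) and Ube3a (0.0653), with an own deviation of 0.118.

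Sort1 was nearest to Mtus2 (0.0777), Klhl23 (0.0816) and Zfp944 (0.0819), with an own deviation of 0.194. The differences were larger for Ntf3 (Tgfb1i1 at 0.125, Zbtb17 at 0.137 and N4bp2l1 at 0.138, own deviation 0.25). They were also larger for Ngfr (Ubald1 at 0.135, Wdr26 at 0.139 and Tmem8b at 0.148, own deviation 0.336). Because the members differ in their own deviation, these values do not rank closeness between members. Ntf3 and Ngfr had the fewest soma counts of the members (184 to 385 for Ntf3 and 184 to 494 for Ngfr per library). The part of low counts in these differences was not tested.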

How the data were processed

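Low-input poly(A) RNA sequencing was done on 23 libraries. The authors deposited whole-number counts of reads per Ensembl gene ID for each library, and the submitters' processing notes name fastp 0.20.1, STAR 2.7.08a, HTSeq 0.13.5 and the build mm10. The annotation release, the strand setting and any use of the molecular identifiers named in the labels to remove duplicates are not given in the sources used here. Of all reads, 14.2% to 24.4% were in rows that name no gene, and these stayed out of totals and tests. Of 55487 IDs, 55141 had a symbol. No 2 libraries of a group held identical values.

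Groups were taken from the labels. Each comparison was fitted on its own libraries with edgeR 4.0.16 in R 4.3.3 (filterByExpr, TMM normalization, robust quasi-likelihood F test), with Benjamini-Hochberg adjustment over all genes tested and a threshold of 0.05. The standard error (SE) is the log2 fold change divided by the square root of F. Where 1 group had no library above the floor of 3 counts, the fold is a lower bound from the mean floor of that group. Such a bound covers counting error only. The fits were also run on simulated data, whose outcome is not given here and on which no result rests. Soma libraries were split at the widest gap in Eif2s3y. Alternatives were other scalings, no filter, DESeq2 1.42.0, limma 3.58.1 (voom), a replicate block, the Eif2s3y set, smooth offsets for length and GC content (mgcv 1.9.3), and leaving out libraries. Named are all 6 members, all 5 listed other ligands and receptors and, per list and comparison, up to 3 called genes in each direction with the largest change and at least 10 CPM. The members and lists were chosen with earlier results of these data known, and 3 genes of the lists are not reported here. Lengths and loci come from GENCODE M21.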

Additional observations from a re-analysis of the deposited data

Results flagged for a closer look

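Among 22 sets of values of 1 member in 1 group, 6 held a library whose gap to the nearest other one took up most of the range of the group. Chance alone would give this in about 1 in 20 sets, and genes found in a single library of a group give it by construction. Control axon replicate 5 stood apart for 3 receptors, with 173.5 CPM of Ntrk2 (next highest 0.167 CPM), 178.5 CPM of Ntrk3 (next highest 7.42 CPM) and 86.4 CPM of Sort1 (0 in the other control axons). Control axon replicate 3 stood apart with 277 CPM of Ngfr, which had 0 in the other control axons. Stretched axon replicate 1 had 494.1 CPM of Sort1, with 130.5 CPM in the next highest library. Stretched axon replicate 2 had 0.122 CPM of Ngfr, which is 2 counts and under the floor.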

How the results depend on the processing

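Which genes are called depends on the fit in each comparison. In soma 3929 genes were called, against 2467 with length and GC offsets, 2028 with offsets and the replicate block, 0 in the Eif2s3y-low set alone, 6596 with the set as covariate without both libraries numbered 4, and 2666 to 6072 with 1 library left out. For axons under stretch it was 0, against 18 by DESeq2 and 10 by voom. For control axons against soma it was 5196, against 10714 without a filter, 9798 by voom and 4542 to 8151 with 1 library left out. For stretched axons against soma it was 4234, against 10931 without a filter, 10084 by voom, 7687 with the replicate block and 4174 to 6499 with 1 library left out. The fit of the Eif2s3y set without both libraries numbered 4 and the test of a difference between the sets were added after the data were seen. Control soma replicate 4 stood apart when the counts of 2 libraries were compared by chi-square per gene. It had 68.9 to 117.4 against the other control soma libraries, which had 12.7 to 49.6 among themselves. Stretched soma replicate 4 had 16.3 to 43.15, within the 6.112 to 57.45 of the other stretched soma pairs. The cause was not tested.

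Among members in soma, Ntrk2 (-0.01) turned positive with total counts (0.035), no filter (0.024), voom (0.049), the replicate block (0.012), the set as covariate (0.005) and the low set alone (0.078), with -0.089 to 0.116 when 1 library was left out. Ngfr (0.11) turned negative with voom (-0.022), in the high set alone (-0.032), without both libraries numbered 4 (-0.013), and with the set as covariate without them (-0.029), with -0.036 to 0.221 when 1 library was left out. Ntrk3 (0.17) was at -0.036 with offsets and -0.027 with offsets and block, and it was called (0.183, adjusted p = 0.0484) with the set as covariate without both libraries numbered 4. Bdnf and Ntf3 kept a negative and Sort1 a positive sign under all 25 alternatives in soma. Sorcs1 (0.10) turned negative with the block (-0.044), the set (-0.020), offsets (-0.172), offsets and block (-0.314), the low set (-0.505), the set without both libraries numbered 4 (-0.036) with -0.115 to 0.257 when 1 library was left out.

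In control axons against soma, Ngfr (1.96) was at -6.326 by voom, -9.678 with the block and -11.411 to 2.279 with 1 library left out. In stretched axons against soma, Bdnf (-0.04) was at 0.085 with DESeq2 size factors, 0.399 with total counts, 0.085 with DESeq2 and -0.435 to 0.215 with 1 library left out, Ntrk3 (-0.38) at 0.048 with total counts, and Sort1 (1.14) at -5.568 by voom, -4.845 with the block and -0.083 to 1.622 with 1 left out. The cause of these shifts was not tested.

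Replicate numbers were not taken to pair libraries: the labels give no meaning for them, and while the correlation of deviations of same-numbered soma libraries was 0.128 to 0.397 for numbers 1, 2, 4 and 6, it was 0.00277 for number 5. Numbers 1 and 6 correlated best with their own number, and same-numbered soma libraries fell into the same Eif2s3y set. With the replicate block, Bdnf (-0.46, adjusted p = 0.022) and Sort1 (0.39, adjusted p = 0.0465) were called in soma, 3209 genes in all, as were Sorl1 (0.676, adjusted p = 0.0177) and Sorcs3 (0.916, adjusted p = 0.0363), while Traf6 (adjusted p = 0.0905), Kidins220 (0.0696), Pik3cb (0.102) and Hras (0.118) were not; under stretch in axons 0 genes were called and Bdnf (-0.227), Ntrk2 (-1.731) and Ntrk3 (-2.040) turned negative; in control axons against soma 5287 genes were called, Ntf3 and Ntrk2 (-12.869, adjusted p = 0.029) among them. At a threshold of at least 1 count in place of more than 3, Ntrk2 was found in 6 and Ngfr in 2 axonal libraries. Depth limits low genes: 1 library at the floor of 3 counts cannot show a level under 0.0697 CPM.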
